A study of Homo sapiens with 3 samples.

Results

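The regions described here are peaks of RNA crosslinked to HA-tagged HNRNPA0 that lie deep inside very long human genes. A peak was taken where its gene ID was tied to a protein-coding gene of 200 kb or more and its centre fell between 10% and 90% of the gene's length from the 5′ end, counted on hg38 with RefSeq gene intervals. The rule used position and gene length and no measured value. It found 2958 peaks among 48938 in all, with 801 of 15661 in replicate 1, 832 of 15486 in replicate 2 and 1325 of 17791 in replicate 3. They lay in 485 of the 1398 protein-coding genes of that length, which is 34.7% of them. Of the other genes, 810 held no peak at all.

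The data came from easyCLIP, in which UV light bonds RNA to the protein that touches it, the protein is pulled down, and the attached RNA fragments are sequenced. HEK293T cells, a line of human embryonic kidney origin with an otherwise wild-type genotype per the labels, received 750 ng of vector, from which the HA-tagged protein was made, per plate of 15 cm. The UV dose was 0.3 J/cm2 (wavelength 254 nm). Each replicate used some 2 mg of lysate, bound to anti-HA beads, and its RNA was trimmed for some 3 min by RNase I (0.02 U/uL). All 3 libraries formed 1 group, so the protein was the tagged one from the vector in every library, and a library without it was not used here. The labels do not say whether the 3 replicates were separate cultures, so the spread between them may be technical. Replicates carried their own barcodes and were pooled after the 3′ adapter was joined.

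Most of the length of a gene of this size is intron, the part of the transcript that splicing removes in the nucleus. Proteins of the hnRNP A/B family, to which HNRNPA0 belongs, bind nascent and mature transcripts and are known for roles in splicing and in the stability of messenger RNA. Long genes are also where many cell-adhesion, synaptic and developmental genes are found, and several of them lie over common fragile sites, which break when replication is slowed. Exons were not told apart from introns here, since the gene table used gives whole gene intervals.

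Sequence was at hand only around annotated start sites, in RefSeq windows of 300 bases on GRCh38.p14. Of the 2958 peaks, 6 overlapped such a window on their own strand and 0 overlapped a miRNA hairpin. The 3 that lay whole inside a window are printed to show what a short recovered fragment looks like, 5′ to 3′ on the peak's strand, with each TAG and each GGG in capitals. DTNA encodes dystrobrevin alpha, a partner of dystrophin, and its peak at chr18:34755986-34756023 on the plus strand came from replicate 1 with a read number of 3. ACBD6 encodes an acyl-CoA binding protein, and its peak at chr1:180430192-180430251 on the minus strand came from replicate 3 with a read number of 4, over the start window of a neighbouring locus. LIPA encodes lysosomal acid lipase, and its peak at chr10:89251735-89251802 on the minus strand came from replicate 3 with a read number of 3. These genes were chosen for having sequence, after their values were seen.
DTNA: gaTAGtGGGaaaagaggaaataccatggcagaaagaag
ACBD6: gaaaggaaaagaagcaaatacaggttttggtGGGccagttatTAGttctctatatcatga
LIPA: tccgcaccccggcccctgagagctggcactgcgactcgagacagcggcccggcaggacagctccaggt
The DTNA and ACBD6 peaks each held TAG and GGG once, and the LIPA peak held neither. TAG is the core of the motif known for hnRNP A/B proteins, and GGG is a run of guanines of the kind that G-quadruplexes, four-stranded guanine structures, are built from. In the first 38 bases of the RefSeq windows, the width of the DTNA peak, 27.4% held TAG and 46.8% held GGG on the gene's strand. In the first 60 bases, the width of the ACBD6 peak, the shares were 39.7% and 60.6%. In the first 68 bases, the width of the LIPA peak, they were 43.6% and 64.4%. The windows begin 250 bases before the start, so these first bases lie upstream of it and are not matched to the peaks. A match is a description of these letters, and the peaks that lay outside the windows were not searched.

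Replicate 3 stood apart and bears on every count below. It held 1.62 times as many of these deep peaks as the mean of the others, against 1.14 times for the whole lists and 1.07 times for interior peaks of genes of 5 to 200 kb. This excess grew with gene length. Replicate 3 had 0.994 times the mean of the others in the interior of genes of 5 to 50 kb, 1.16 times at 50 to 200 kb, 1.54 times at 200 to 400 kb, 1.76 times at 400 to 800 kb and 1.92 times in genes of 800 kb or more. Peaks in the first 10% of the long genes showed a like excess of 1.59 times, and those in the last 10% an excess of 1.18 times. Among 485 genes with a deep peak, 224 had more in replicate 3 than in either other replicate and 35 had fewer. Mitochondrial peaks took 48.3% of the summed read number in replicate 3 and 62.8% and 63.1% in replicates 1 and 2, and outside mitochondria the sums were 114203 against 100038 and 99141. One library cannot be tested against its group, and the part of these differences in the excess was not tested.

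Peaks deep inside very long genes were sparse. Per kb of interior they came to 0.00170, 0.00176 and 0.00281 in replicates 1, 2 and 3, a mean of 0.00209 ± 0.000624 (SD, n = 3), or 2.09 ± 0.624 per Mb. Over the 588 long genes with any peak the density was 5.28 ± 1.57 per Mb. Over all 1398 long genes, the set behind the 2.09 per Mb, the first 10% held 4.36 ± 1.31 per Mb and the last 10% held 7.34 ± 0.735 per Mb. Interiors of genes of 5 to 50 kb held 23.4 ± 0.651 per Mb, and those of 50 to 200 kb held 9.76 ± 0.843 per Mb (SD, n = 3). The interior of the long genes was lower than each of these 4 in 3 of 3 replicates, and its replicate values did not overlap theirs. The closest were 2.81 per Mb in the interior in replicate 3 and 3.22 per Mb in the first 10% in replicate 2. An exact paired sign-flip permutation test, two-sided, gave p = 0.25 for each, adjusted p = 0.25 over the 4 by Benjamini-Hochberg, and 0.25 is the smallest p that 3 replicates allow. Among the long genes themselves the density went on falling with length, from 3.30 ± 0.872 per Mb at 200 to 400 kb to 1.35 ± 0.472 at 400 to 800 kb and 0.978 ± 0.399 at 800 kb or more. RNA levels are not known here, so fewer copies of a transcript and less protein on each copy cannot be told apart.

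**Figure D1:**
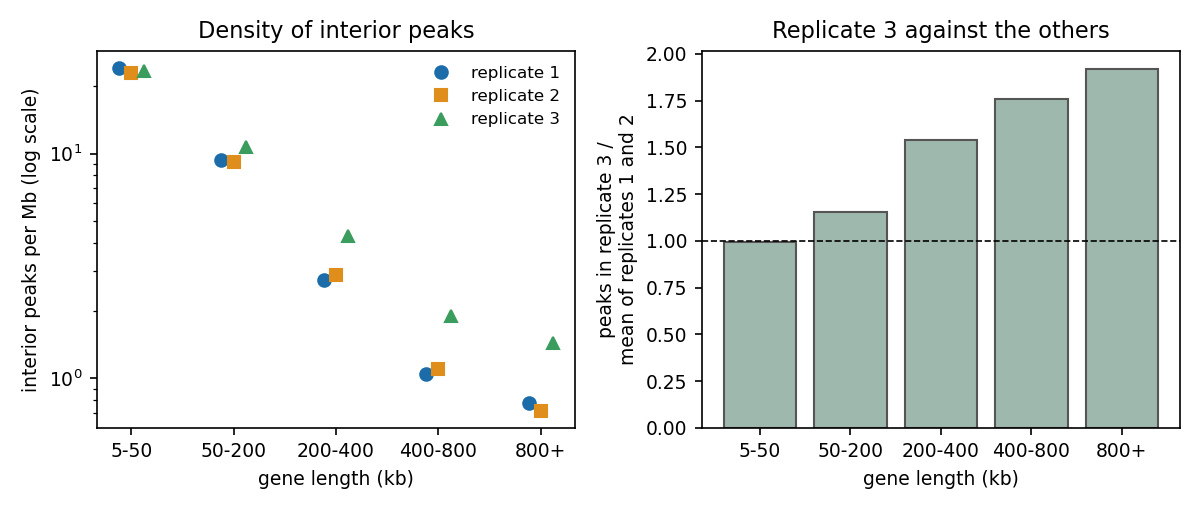
Density of interior peaks (10% to 90% of the gene) per Mb by gene length class on a log scale, with 1 point per replicate (left), and the number of such peaks in replicate 3 over the mean of replicates 1 and 2 (right, bars from 0, dashed line at 1). Density falls from a mean of 23.4 per Mb in genes of 5 to 50 kb to 0.978 per Mb in genes of 800 kb or more, while the ratio rises from 0.994 to 1.92.

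Position within the gene differed in shape between long and shorter genes. Of all peaks in genes of 200 kb or more, 15.2% ± 1.64 lay in the first 10% of the gene and 26.4% ± 3.42 in the last 10% (SD, n = 3). Between them the share was 10.3% ± 1.05 in the second step of 10% and 5.57% ± 0.594 in the sixth, where it was lowest. Genes of 5 to 200 kb had 6.08% ± 0.664 in the first 10% and 33.6% ± 0.767 in the last, and their share rose from 4.95% ± 0.345 in the second step to 12.7% ± 0.541 in the ninth. The second step was thus above the ninth in the long genes and below it in the shorter ones, in each of the 3 replicates. This difference in shape was described and not tested.

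**Figure D2:**
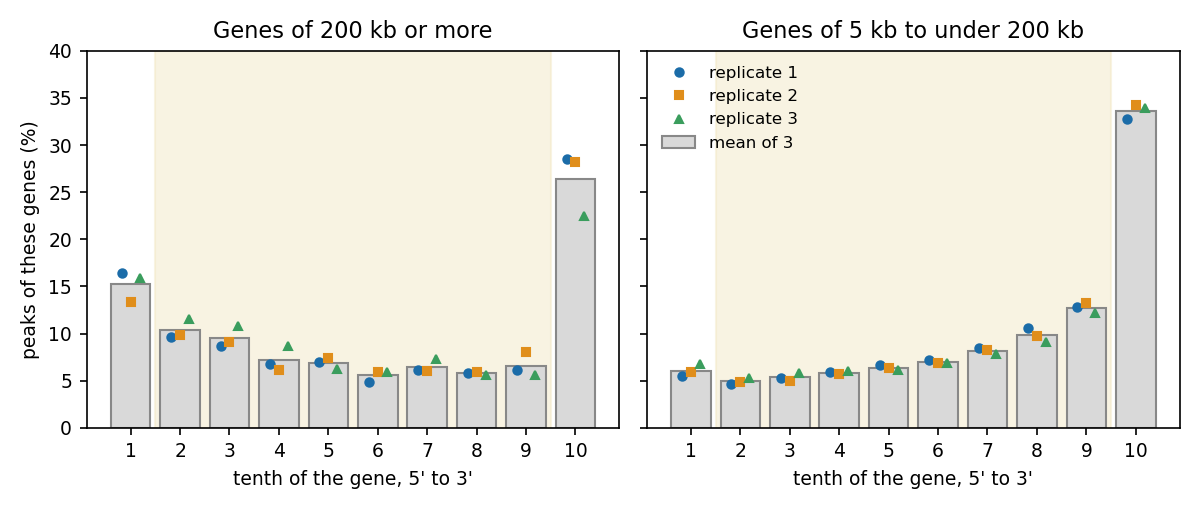
Share of all peaks of protein-coding genes, in percent, in each step of 10% along the gene from the 5′ to the 3′ end, for genes of 200 kb or more (left) and of 5 kb to under 200 kb (right). Bars are means of 3 replicates, points are replicates, and shading marks the interior. Long genes hold 15.2% in the first step and 26.4% in the last, and shorter genes 6.08% and 33.6%.

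The deep peaks were low. Each line of the deposited lists ends its name with a whole number, read here as the reads in the peak and called the read number. Its median was 3, the lowest value in the lists, in each replicate, and its highest values were 29, 21 and 18. Peaks at a read number of 3 made up 69.1% ± 1.71 of the deep peaks and 45.2% ± 2.36 of interior peaks in genes of 5 to 200 kb (SD, n = 3). A read number of 10 or more was reached by 8, 6 and 13 peaks, a share of 0.90% ± 0.155 against 10.2% ± 1.19 in the shorter genes. The difference was -9.33 ± 1.28 percentage points, lower in 3 of 3 replicates (exact sign-flip permutation p = 0.25, two-sided, the smallest possible). The last 10% of the same long genes stood between, with 2.87% ± 0.944. Median widths were 65, 63 and 67 nt, wider than the 60.3 ± 1.53 nt of the shorter genes by 4.67 ± 0.577 nt in 3 of 3 replicates (exact sign-flip permutation p = 0.25). That difference was 23.7 ± 3.79 nt among peaks whose read number was at least 5 and 16.3 ± 1.53 nt among the 50% of each list with the lowest p-values. The plus strand held 49.0% ± 1.61 of the deep peaks. The authors' deposited p-value had a median of 0.0209 in the deep peaks and 0.00750 in the interior of shorter genes, as means of the replicate medians.

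Recurrence was measured as the share of the peaks of a replicate that shared at least 1 bp and the strand with a peak of one other replicate, as the mean over both others. It was 13.5%, 12.4% and 8.60% for the deep peaks of replicates 1, 2 and 3, a mean of 11.5% ± 2.56, against 24.1% ± 1.32 in the interior of genes of 5 to 200 kb (SD, n = 3). The difference was -12.6 ± 1.39 percentage points, lower in 3 of 3 replicates (exact sign-flip permutation p = 0.25, two-sided), and -6.78 ± 1.24 where 50% of both peaks had to overlap. In the last 10% of the same genes the share was 18.9% ± 0.917. A peak in at least 1 of the other replicates was found for 17.6% ± 3.74 of deep peaks and 34.5% ± 1.84 in shorter genes.

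Recurrence rose steeply with the read number. At a read number of 3, 5.60% ± 1.69 of deep peaks were overlapped, against 9.49% ± 0.876 in shorter genes, lower in 3 of 3 replicates. At 4 the shares were 13.1% ± 1.75 and 17.5% ± 0.772, again lower in 3 of 3. At 5 to 9 they were 37.4% ± 6.33 and 35.1% ± 1.28, higher in 2 of 3 replicates with an exact sign-flip permutation p = 0.75. At 10 or more they were 89.5% ± 11.7 and 73.5% ± 1.17, higher in 3 of 3, but resting on 8, 6 and 13 deep peaks. With only peaks at a read number of 5 or more kept in every list, the difference between long and shorter genes was -11.6 ± 4.48 percentage points. That setting also took peaks at 3 and 4 out of the lists that do the overlapping. The mix of the upper classes also differed. Per replicate a mean of 114 deep peaks had a read number of 5 to 9 and 9 had 10 or more. In shorter genes these means were 2005 and 802. The setting is therefore not a pooling of the upper classes above, and the values are not directly comparable.

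**Figure D3:**
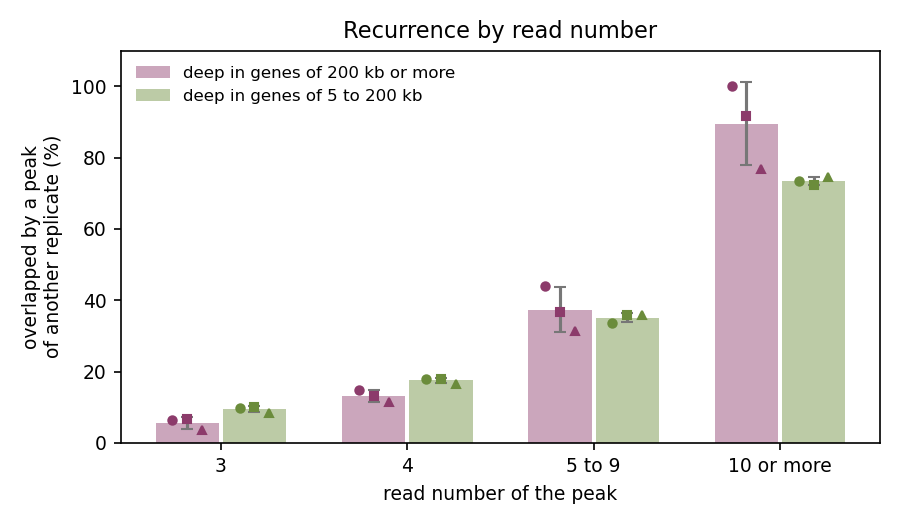
Share of peaks, in percent, overlapped by a peak of one other replicate (mean over both others), by read number class, for peaks deep in genes of 200 kb or more and deep in genes of 5 to 200 kb. Bars are means, error bars are SD and points are the 3 replicates. The share of deep peaks of long genes rises from 5.60% at a read number of 3 to 89.5% at 10 or more, and that of shorter genes from 9.49% to 73.5%.

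Peaks of different replicates often lay in the same stretch of a gene. Of the deep peaks, overlapping ones included, 31.2% ± 5.96 lay within 1000 nt of a peak of another replicate in the same gene, and 59.7% ± 5.55 within 10000 nt (SD, n = 3). In the interior of shorter genes these shares were 58.7% ± 2.36 and 83.6% ± 1.69. Within a list, neighbouring deep peaks of a gene were a median of 8510 ± 1262 nt apart, against 1367 ± 87.3 nt in shorter genes. The distances were given no test, and were not compared at matched density.

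Merging overlapping peaks of the 3 lists gave 2679 deep regions. Of these, 2461 had a peak from 1 replicate, 167 from 2 and 51 from all 3, so 1.90% recurred in every replicate. The same share was 6.23 percent over the regions of all lists and 5.62 percent over interior regions of genes of 5 to 200 kb. The 51 regions lay in 46 genes, 3.29 percent of the long genes, against 3.94 percent of genes of 5 to 200 kb with such an interior region. Their median width was 122 nt, their median position was 50.0% of the gene from the 5′ end, and all 51 were more than 10 kb from both gene ends. No other RefSeq gene lay at 46 of them. In 19 the lowest of the 3 read numbers was 5 or more, in 3 it was 10 or more, and in 20 it was 3.

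The highest recurrent region lay in SND1, which encodes a protein with nuclease-like and Tudor domains that binds RNA. It was at chr7:127759043-127759154 on the plus strand, 24.3% of the way along the gene, with read numbers of 29, 21 and 16 in replicates 1, 2 and 3. A second SND1 region, at chr7:127705563-127705718, had 6, 8 and 7. NLGN1, a synaptic adhesion gene, held the next, at chr3:173845530-173845685 and 50.0% of the gene, with 12, 18 and 18, and a second region at chr3:173993615-173993703 with 7, 7 and 6. DYNC2H1, the heavy chain of the dynein that carries cargo back along cilia, held 11, 12 and 14 at chr11:103243222-103243350, at 36.1% of the gene. In these 3 genes every replicate lay at 10 or above in the highest region.

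Below them the regions were closer to one another. RORA, a nuclear receptor gene, had read numbers of 9, 8 and 14 at chr15:60866793-60866894, and ZCCHC7, part of a nuclear RNA surveillance complex, had 10, 13 and 8 at chr9:37164398-37164579. An uncharacterised RefSeq noncoding locus covers each of those positions as well. AFG2A, an ATPase of ribosome maturation, had 9, 8 and 10 at chr4:122996515-122996648. METTL15, a methyltransferase of mitochondrial ribosomal RNA, had 6, 9 and 9 at chr11:28308853-28308961. FTO, an RNA demethylase, had 6, 8 and 9 at chr16:54018333-54018457, at 75.2% of the gene. ANXA8, an annexin, had 6, 6 and 6, but the gene has near-identical copies nearby and the position is also within BMS1P2, so that value is uncertain. Of these 6 genes, RORA and ZCCHC7 had the widest spread, and no order among AFG2A, METTL15 and FTO is clear of it.

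Some regions differed more between replicates, and these were chosen after their values were seen. NR3C2, the mineralocorticoid receptor, had 18, 9 and 5 at chr4:148352329-148352450. MGAT5, which branches N-linked glycans, had 9, 13 and 5 at chr2:134381323-134381444. MSH3, a mismatch repair gene, had 10, 7 and 5 at chr5:80692103-80692337. In NR3C2, MGAT5 and MSH3 replicate 3 was the lowest, against the direction of its peak count. In other uneven regions replicate 3 was the highest, as in BBX with 6, 4 and 15, ASH1L with 4, 3 and 10, and RORA with 9, 8 and 14. The uneven regions thus share no direction. CALD1, an actin-binding caldesmon, varied less, with 6, 6 and 5 at chr7:134933203-134933388.

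Only 5 genes held 2 regions in all 3 replicates, namely SND1, NLGN1, BBX, EIF4G3 and ASPH, and none held more. BBX, a gene for an HMG-box protein, had 5, 7 and 6 at chr3:107772649-107772817 and 6, 4 and 15 at chr3:107769155-107769285. EIF4G3, a scaffold of translation initiation, had 5, 3 and 4 at chr1:21133763-21133892 and 3, 5 and 4 at chr1:20941733-20941894. ASPH, an aspartate and asparagine hydroxylase, had 3, 5 and 5 in the higher region and 4, 3 and 4 in the lower. The BBX regions lie at 86.6% and 85.4% of the gene, while those of EIF4G3 lie at 11.6% and 63.4%.

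The lists mark a short stretch of nucleotides within each peak. In the 51 regions the outermost marked stretches of the replicates were a median of 24 nt apart, and 25.5% of the regions had them within 10 nt. In 1058 interior regions of shorter genes the median was 23 nt and the share 20.04%. Peaks that did recur thus had their marks about as close together in long as in shorter genes, as a description with no test.

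Counts per gene were uneven. Of the 485 genes with a deep peak, 186 had one in every replicate, which is 13.3 percent of all long genes, against 10.4 percent of genes of 5 to 200 kb. A further 126 had one in 2 replicates and 173 in 1, and 137 genes had a single deep peak over all lists. The 20 leading genes held 25.7% of the deep peaks. Over the 485 genes, the Spearman correlation of counts between replicates was 0.47 for replicates 1 and 2, 0.49 for 1 and 3 and 0.48 for 2 and 3, across genes that share a library and are not independent replicates. Gene length and the mean count had a Spearman correlation of 0.06 over these genes, and gene length and peaks per kb one of -0.34.

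ROBO1, a receptor for Slit guidance ligands, led with 17, 13 and 24 deep peaks in replicates 1, 2 and 3, a mean of 18 ± 5.57 (SD, n = 3). NFIA, a transcription factor of glial and renal development, had 12, 9 and 29, and its mean of 16.7 ± 10.8 rests largely on replicate 3. MYCBP2, a very large ubiquitin ligase, had 10, 22 and 18. NF1, the Ras regulator neurofibromin, had 20, 14 and 13, and here replicate 1 was the highest. USP34, a deubiquitinating enzyme, had 15, 11 and 17. SND1 had 14, 12 and 16, RAD51B, a gene of homologous recombination, had 12, 11 and 19, and VPS13A, a lipid transfer protein, had 12, 13 and 14. SND1 and VPS13A varied least among these 8, and the ranges of all 8 overlapped, so the replicates do not settle their order.

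The next 12 genes had means from 12.7 to 9.33. EIF4G3 had 6, 11 and 21, and FHIT, a hydrolase gene at a common fragile site, had 11, 6 and 21. DYNC2H1 had 14, 6 and 17, UBE2E2, a ubiquitin-conjugating enzyme, 8, 10 and 16, and EPHA6, an ephrin receptor, 7, 9 and 17. ACACA, acetyl-CoA carboxylase, had 10, 10 and 13, TTC28, a tetratricopeptide repeat gene, 10, 6 and 16, and POLA1, the catalytic subunit of DNA polymerase alpha, 9, 3 and 20. POLA1 was the most uneven of these. BIRC6, an inhibitor of apoptosis with ubiquitin ligase activity, had 12, 11 and 9, KLF12, a zinc-finger repressor, 8, 5 and 15, ASCC3, a helicase, 9, 12 and 7, and KMT2C, a histone methyltransferase, 8, 8 and 12. Of the 20 leading genes, 16 had the most in replicate 3, with MYCBP2, NF1, BIRC6 and ASCC3 as the exceptions. Of all 485 genes with a deep peak, 224 had the most in replicate 3. A region in all 3 replicates was found in 6 of the 20, beside 46 of those 485 genes and 3.29 percent of all long genes. The 20 were chosen for their many peaks, so these shares are not at a matched count. ROBO1, the leader by count, had none, its highest read numbers were 4, 5 and 7, and 3.70% of its deep peaks were overlapped in at least 1 other replicate, while 54.8% of those of SND1 were.

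**Figure D4:**
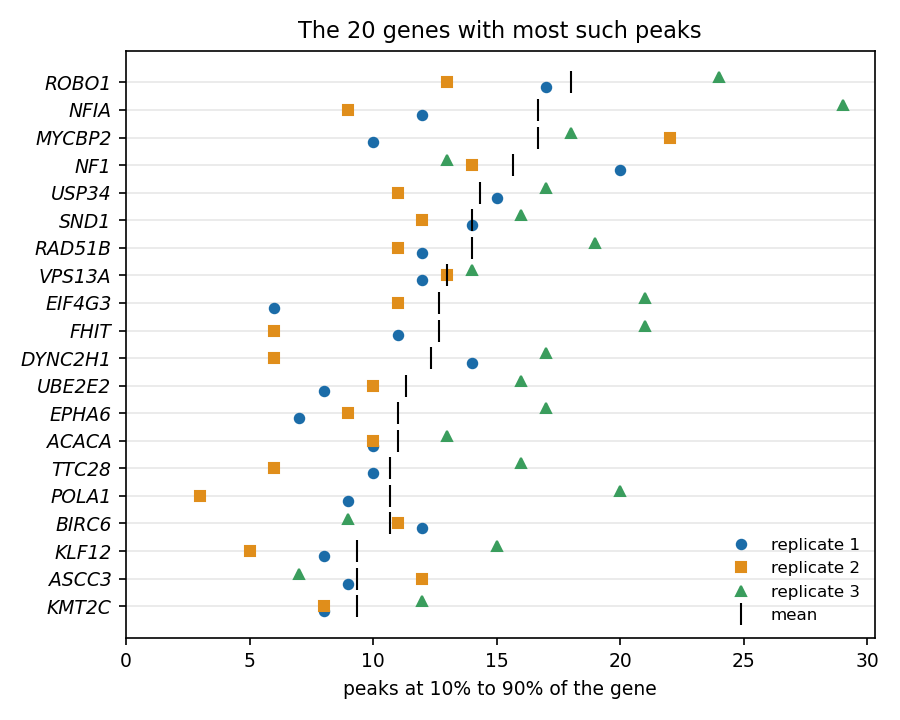
Number of peaks at 10% to 90% of the gene in each replicate (points) and their mean (bar mark) for the 20 long genes with the most. ROBO1 leads with a mean of 18, and replicate 3 is the highest point in 16 of the 20 genes.

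Per length the order changed. MYCBP2 had the highest density at 73.8 ± 27.0 deep peaks per Mb, with NF1 at 69.3 ± 16.7, VPS13A at 66.6 ± 5.12, USP34 at 63.2 ± 13.5 and NFIA at 54.0 ± 35.0 (SD, n = 3). CLASP2, a microtubule-binding gene with 4, 9 and 15 deep peaks, had 52.6 ± 31.0 and BIRC6 had 50.9 ± 7.29. POLA1 had 44.0 ± 35.6, EIF4G3 42.7 ± 25.8 and ACACA 42.7 ± 6.73. ROBO1 came to 19.2 ± 5.94. Every one of the 10 densest genes was above the 5.28 per Mb of long genes with a peak, as the choice of the densest sets, and the SDs of neighbours in the order overlap.

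Many genes with a deep peak had no peak near the 3′ end. Of the 485 genes, 229 also had a peak in the last 10% and 256 had none there. The like share in other genes was not counted, so this is not shown to be particular to them. Among the 20 leading genes the share with none in any replicate was smaller, at 5 of 20. These were FHIT, DYNC2H1, UBE2E2, EPHA6 and TTC28, and each had some in the first 10%. Another 7 had one in the last 10% in each replicate. Within the interior some of the leading genes had their peaks mostly on one side and others did not. EPHA6 had all 33 between 19.0% and 35.6% of the gene, DYNC2H1 all 37 between 10.4% and 51.4%, and UBE2E2 all 34 between 10.6% and 50.6%. NFIA had 48 of 50 before the midpoint, RAD51B 40 of 42 and POLA1 30 of 32. On the other side, KMT2C had 5 of 28 before the midpoint, USP34 10 of 43, ASCC3 9 of 28 and VPS13A 13 of 39. Others were nearer an even split, with 20 of 38 before the midpoint in FHIT, 28 of 50 in MYCBP2, 18 of 32 in BIRC6, 27 of 47 in NF1, 23 of 38 in EIF4G3 and 20 of 33 in ACACA.

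ROBO1 had its deep peaks late in the gene. Its 54 deep peaks all lay between 64.8% and 89.9% of the gene, and none lay in the first 10%. RefSeq annotates a start of a shorter ROBO1 transcript at 63.9% of the gene, 10559 nt before the first of these peaks, and 32.6% of the interior lies after it. NRXN3, a presynaptic adhesion gene, had 3, 3 and 6 deep peaks, all 12 after an annotated start at 65.3%, with 30.9% of the interior after it. KLF12 had all 28 after a start at 27.8%, which lay 1944 nt before the first of them, and 3 after a further start at 45.03%. The windows at these starts are printed as the nearest annotated starts before the first deep peak of each gene, in lower case before the start and in capitals from the start on, read 5′ to 3′ on the gene's strand. They lie at chr3:79019410-79019709 on the minus strand for ROBO1, chr14:79279130-79279429 on the plus strand for NRXN3 and chr13:74133880-74134179 on the minus strand for KLF12.
ROBO1: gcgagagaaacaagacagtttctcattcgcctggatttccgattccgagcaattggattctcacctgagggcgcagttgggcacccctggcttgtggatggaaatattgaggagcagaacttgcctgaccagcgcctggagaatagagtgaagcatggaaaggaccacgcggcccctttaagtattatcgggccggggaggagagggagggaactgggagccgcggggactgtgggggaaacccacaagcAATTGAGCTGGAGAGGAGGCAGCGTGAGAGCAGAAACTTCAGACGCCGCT
NRXN3: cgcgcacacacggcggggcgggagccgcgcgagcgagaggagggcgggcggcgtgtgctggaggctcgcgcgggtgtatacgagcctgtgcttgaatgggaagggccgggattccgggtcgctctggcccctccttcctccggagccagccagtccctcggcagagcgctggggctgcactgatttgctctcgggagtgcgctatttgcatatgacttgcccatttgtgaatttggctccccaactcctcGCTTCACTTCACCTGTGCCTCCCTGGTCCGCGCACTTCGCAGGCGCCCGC
KLF12: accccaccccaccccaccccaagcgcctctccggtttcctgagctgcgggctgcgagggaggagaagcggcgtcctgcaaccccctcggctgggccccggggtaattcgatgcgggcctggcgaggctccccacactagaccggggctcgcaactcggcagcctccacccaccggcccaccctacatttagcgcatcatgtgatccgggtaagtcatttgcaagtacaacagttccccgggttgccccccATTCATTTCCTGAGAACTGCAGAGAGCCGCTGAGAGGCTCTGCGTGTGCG
Their GC contents were 56.7%, 67.0% and 65.0%, against a median of 58.7% over 35116 such windows, and they held 15, 30 and 21 CG dinucleotides against a median of 14. TATAAA, the TATA box sequence, was searched on the gene's strand and occurred in 0 of the 3 and in 7.33% of all windows. No signal of these data was measured at the windows themselves.

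**Figure D5:**
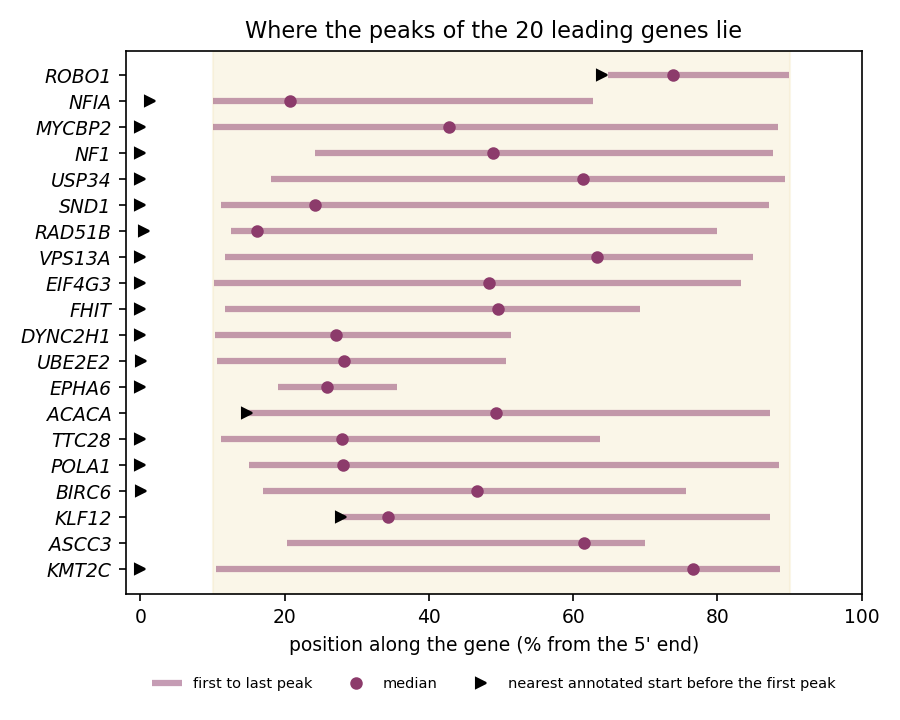
Position of the deep peaks along the 20 leading genes, in percent of the gene from the 5′ end, as the stretch from first to last peak of the 3 replicates (line), the median (circle) and the nearest annotated start before the first peak (triangle, where the table gives one). Shading marks the interior. ROBO1 spans 64.8% to 89.9% just after its start at 63.9%, and EPHA6 spans 19.0% to 35.6%.

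The pattern of ROBO1 was not general. It was looked for in other genes after ROBO1 had been seen. Of 18 genes with an annotated internal start and 10 or more deep peaks, 6 had all of them after the first such start, 3 had all after the last, and 8 had none after the last. GALNT13, a glycosyltransferase gene, had 13 of 13 after a start at 29.5%, but 75.6% of its interior lies there. FHIT had 0 of 38 after its internal start at 77.8%, EPHA6 0 of 33 after 66.0% and SMYD3, a methyltransferase gene, 0 of 20 after 68.4%. Over all 331 long genes with an internal start, the density was 1.86 ± 0.629 per Mb before the first and 2.47 ± 0.733 after the last (SD, n = 3). It was higher after the start in 3 of 3 replicates, at 1.33 times (exact sign-flip permutation p = 0.25, two-sided, the smallest possible). Over the 114 of these genes with a deep peak it was 1.20 times. ROBO1, which prompted the search, is among them. All of its 17, 13 and 24 deep peaks are counted in the 93, 103 and 158 after the start. Before the first start there were 76, 79 and 134. In replicates 1 and 3 the counts after the start thus exceed those before by no more than the peaks of ROBO1. The comparison is not independent of ROBO1, no density without it is given, and the test cannot show a pattern in other genes.

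The longest genes, like the long genes as a whole, were mostly without peaks. Of 69 genes of 1 Mb or more, 13 had a deep peak and 49 had no peak anywhere. Over all 1398 long genes, 485 had a deep peak and 810 had no peak anywhere. The 3 longest with a deep peak in each replicate were LRP1B, a lipoprotein receptor gene of 1899594 bp with 3, 3 and 3, NRXN3 of 1697919 bp, and FHIT of 1504176 bp. The 9 peaks of LRP1B all lay between 10.5% and 38.1% of the gene, and none was overlapped by a peak of another replicate. The 3 longest genes with no peak were RBFOX1, a neuronal and muscle splicing factor of 2473620 bp, PTPRD, a receptor phosphatase of 2298757 bp, and DMD, the muscle gene dystrophin of 2220167 bp. Absence of a peak does not show absence of binding, since the RNA level of these genes is not known here.

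The genes nearest the length threshold that held an interior peak had few on either side. Genes without such a peak were passed over, so these values do not compare the sides of the threshold. Just above 200 kb, SCAI, a transcription cofactor gene of 200921 bp, had 0, 0 and 1 deep peaks, LIPA 0, 1 and 2, and CPS1, a urea cycle enzyme gene, 0, 2 and 0. Just below it, LRCH1 of 199872 bp had 0, 0 and 1 interior peaks, ADAMTS20, a metalloprotease gene, 0, 0 and 1, and RHBDD1, a rhomboid protease gene, 1, 1 and 1.

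Gene groups differed in how many of their long members held a deep peak, beside the 34.7 percent of all long genes. Transcription and chromatin regulators had 30 of 50, or 60.0%. Of the 50, 18 had one in each replicate, beside 13.3 percent of all long genes, and 5 had a region in all 3, beside 3.29 percent. NFIA led this group, and the chromatin remodeller ATRX had 4, 11 and 7 and the Mediator gene MED13L 9, 4 and 9, while ZFHX3, SOX5 and CAMTA1 had none. Cell division and replication genes had 12 of 17, or 70.6%, with 7 in each replicate. RAD51B and POLA1 led them, the cohesin gene STAG1 had 3, 7 and 6, and SPAG16 and CEP112 had none. RNA-binding protein genes had 11 of 19, or 57.9%, with 7 in each replicate. After EIF4G3, the splicing factor RBFOX2 had 6, 4 and 5 and TNRC6A, a partner of Argonaute, had 3, 6 and 6, while RBFOX1 and CELF2 had none. The counts of both this list and the cell division list include DIAPH3, a formin that regulates actin, with 3, 2 and 3.

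Common fragile site genes had 13 of 24, or 54.2%, with 10 in each replicate. After FHIT, AUTS2 had 5, 6 and 10 and the oxidoreductase WWOX 2, 4 and 9, while DMD, DLG2 and MACROD2 had none. Protein kinase and phosphatase genes had 16 of 33, or 48.5%, and 3 of 33, or 9.09%, in each replicate, beside the 13.3 percent of all long genes, led by the cGMP-dependent kinase PRKG1 with 2, 5 and 6, with PTPRD at 0. Small GTPase regulators had 11 of 36, or 30.6%, and axon guidance genes 7 of 24, or 29.2%. Both were near the 34.7 percent of all long genes. In the axon guidance list ROBO1 and EPHA6 stood beside DCC and SEMA6D with none. Neuronal adhesion and synapse genes were lower, with 8 of 43, or 18.6%. The glypican GPC6 led them with 4, 4 and 8, while CNTNAP2 and CSMD1 had none. A list of genes of other tissues, among them muscle and retina, had 2 of 18, or 11.1%, with 0 in each replicate. CACNA2D1, a calcium channel subunit, led it with 0, 1 and 2. The blood genes on that list were all under 200 kb and so were not counted. The lists were chosen with earlier results known and share members, so these counts are given without a test, and RNA levels in HEK293T cells were not matched.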

How the data were processed

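RNA bound to HA-tagged HNRNPA0 was measured in 3 replicates. The authors deposited 1 peak list per replicate, each line with an interval, strand, gene ID, whole number and p-value, which per the deposited lists is under 0.05. Per the submitters' processing notes, the build is hg38 and the tools include bedtools and deepTools, with no version. Which aligner and peak caller were used is not given in the sources used here. The whole number deposited at the end of each name was read as the count of reads in the peak, which the lists do not state. All depth known here is in these numbers.

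Gene IDs were tied to the RefSeq gene that held at least 90% of their peak centres. Of 6583 IDs, 6354 were tied, 608 to long genes, where strand or readthrough status decided 31, 3 were left out as lying on the other strand, and 20 second IDs were set aside. RefSeq intervals span all transcripts and can exceed the main one, as in ANXA8. Strand came from RefSeq start windows for 502 genes and from the peaks for 86. Distinct peaks were counted once, and 19 are also listed under another ID. Some genes are not reported here. Densities are means over replicates with SD, and paired differences were tested by the exact sign-flip permutation test over 3 replicates with Benjamini-Hochberg adjustment, in Python 3.11.15 with numpy 2.4.6, pandas 2.3.3 and scipy 1.17.1, tested on simulated data. Peaks and genes are not replicates.

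The members and gene lists were chosen with earlier results of these data known. Named genes were the 20 with the most peaks, the 10 densest with 3 or more in each replicate, those with 2 recurrent regions, those of the 10 highest recurrent regions, the 3 longest with and without peaks, the 3 on either side of the threshold and the leader and some empty members of each list. Others are said to be chosen later. Planned results on exons and on sequence under the peaks were not run, since no genome was used here. Alternatives varied the length threshold, interior, gene assignment, read number, p-value, overlap, joining of touching peaks and replicates.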

Additional observations from a re-analysis of the deposited data

How the results depend on the processing

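Of 184 recomputed values, 35 moved and 0 reversed, where a tested difference was judged by its direction and any other value by its size. The 7 tested differences kept their direction in all 85 recomputations, but p could not fall below 0.25, or 0.5 without a replicate, and sizes changed. At a read number of 5 or more the difference in the share at 10 or more went from -9.33 to -21.4 percentage points, in width from 4.67 to 23.7 nt, and in density per kb from -0.00226 to -0.000237 against the first 10%, from -0.00525 to -0.00184 against the last 10%, from -0.0213 to -0.0104 against genes of 5 to 50 kb and from -0.00767 to -0.00213 against those of 50 to 200 kb. Deep peaks per replicate, 986 in the report, numbered 1557 with genes from 150 kb, 546 from 300 kb, 123 at a read number of 5 or more and 292 among the 50% of each list with the lowest p-values (the stricter part). Density per kb, 0.00209, became 0.00278 from 150 kb, 0.000261 at 5 or more and 0.000619 in the stricter part. Overlap, 11.5%, became 26.6% at 5 or more, 19.1% in the stricter part and 8.17% where 50% of both peaks had to overlap. Regions in all 3 replicates, 51, became 89 from 150 kb, 29 from 300 kb, 30 at 20% to 80% of the gene, 19 at 5 or more, 29 in the stricter part and 218 with 2 or more replicates. Their genes, 46, became 72, 26, 29, 17, 27 and 123 in that order. Without 1 replicate there were 96 to 114 regions in 70 to 80 genes, since fewer replicates had to hold a peak. Genes with a deep peak in each replicate, 186, became 289, 92, 31 at 5 or more, 62 in the stricter part and 312 with 2 or more replicates. The leading gene had 18 peaks per replicate, 4.67 at 5 or more (USP34) and 8.33 in the stricter part (DYNC2H1). It was ANKRD17 from 150 kb (20), NFIA at 5% to 95% (21.7), MYCBP2 without replicate 1 (20), NFIA without replicate 2 (20.5) and NF1 without replicate 3 (17.0), and 10 to 20 of the 20 leading genes were kept. Keeping all gene IDs, the ratio for replicate 3, the alternatives for the read number, width and density differences, and the search for internal starts were added after seeing the data. No paired analysis was possible because all 3 replicates belong to 1 group, so replicate numbers pair no samples across groups; the sign-flip test pairs classes of peaks within a replicate. Read numbers near 3, the lowest listed, limit what recurrence can show.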
